A study of Mus musculus with 12 samples.

Results

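The genes described here encode the E proteins and the Id inhibitors. They are Tcf3 (encoding E2A), Tcf4 (encoding E2-2), Tcf12 (encoding HEB), Id1, Id2 and Id3. They were chosen by their gene names, and each of the 6 names had 1 row among the 41128 genes of the table. The libraries, 12 in all, were made from spleen cells of untreated C57BL/6J mice aged 6 to 8 weeks, and the series states that its replicates come from pooled mice. There were 4 groups of 3 libraries, namely resting CD43- B cells from females, the same cells from males, naive CD4+CD62L+ T cells from females and the same cells from males. B cell libraries are numbered 1 to 3 and T cell libraries 4 to 6 in each sex. The T cells had been enriched on magnetic beads and sorted as CD62L high, CD44 low cells without CD25.

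E proteins are transcription factors of the basic helix-loop-helix (HLH) family. They bind DNA as dimers at a short palindromic motif, the E-box. Id proteins carry the HLH region but no basic region, so a dimer of an Id protein with an E protein does not bind DNA. The balance of E proteins and Id proteins is known for setting the commitment of lymphoid progenitors to the B and T lineages, for restraining naive T cells, and for the development of innate lymphoid cells, which depends on Id2. Tcf3 and Tcf4 are also old names of the unrelated genes Tcf7l1 and Tcf7l2, and the rows used here are the HLH genes ENSMUSG00000020167 and ENSMUSG00000053477.

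Expression was given as adjusted TPM, a level per transcript length after a rescaling between libraries, with a lower and an upper bound for each value. Sequencing depth is unknown. Fold changes were taken on the scale log2(adjusted TPM + 1), which shrinks the fold of low genes, and B and T cells were compared with limma. A gene is called past the threshold where its p, adjusted by Benjamini-Hochberg over the 12520 genes tested, was under 0.05. The marker genes followed the labels. The 5 B cell markers summed to between 2610 and 2972 adjusted TPM in B cells and to at most 5.34 in T cells. The 5 T cell markers summed to between 1017 and 1194 in T cells and to at most 14.1 in B cells. Totals of adjusted TPM ran from 561020 to 1453940 per library, and a single RNA gene, Yam1, took 32.2% of female B cell 1 and 37.4% of male T cell 6.

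Of the 6 genes, 5 were tested between B and T cells, and Id1 was under the filter on low values. Tcf4 passed that filter through the B cell libraries alone, which fixed its direction. Tcf3, Tcf4 and Id3 were higher in B cells, Id2 was higher in T cells, and Tcf12 was not past the threshold. The comparison separates most genes, since 73% of all tested genes were past the threshold. The B cell level was the higher for 31.4% of them all and the T cell level for 41.6%. That split depended on the scaling, since 43.0% of the calls were higher in B cells as deposited and 70.8% with all libraries set to the same sum of 1000000, where 6797 genes in place of 9134 were past the threshold. The count of 4 of 5 is therefore close to this background, and the sizes and directions of the single genes carry the description. In bulk samples, fewer cells of a type and less RNA per cell cannot be told apart.

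**Figure D1:**
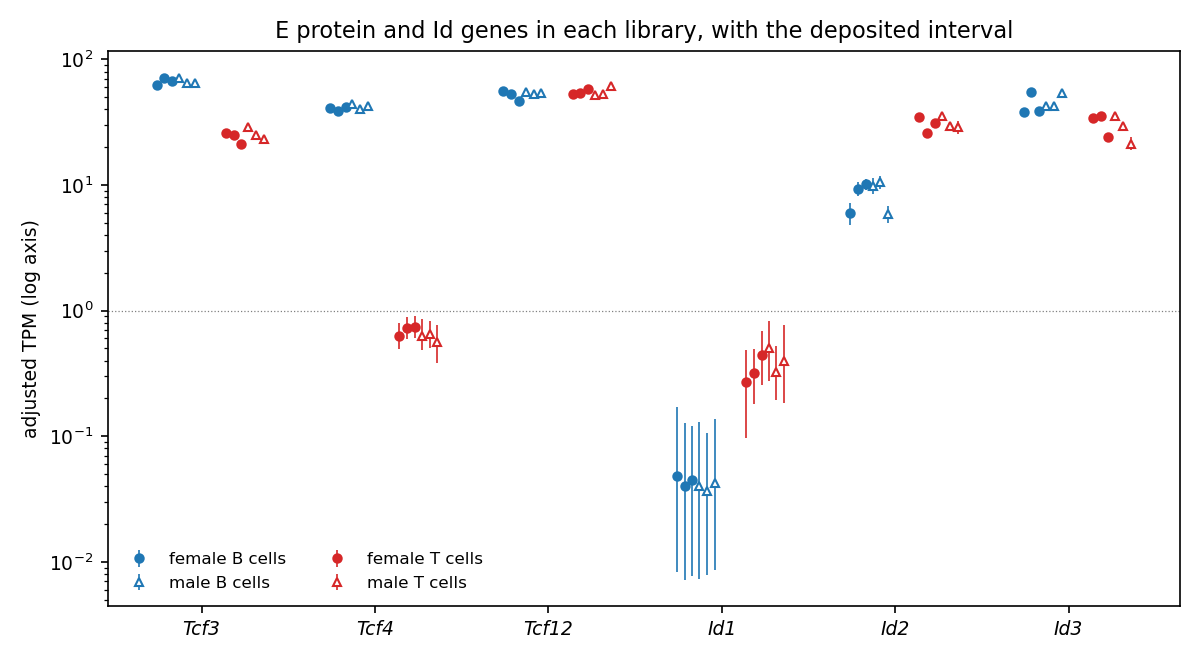
Adjusted TPM (log axis) of the 6 genes in each of the 12 libraries, with B cells in blue, T cells in red, females as filled circles and males as open triangles, and with the deposited lower and upper bounds as bars. Tcf4 lies between 39.1 and 44.3 in B cells and between 0.565 and 0.743 in T cells, the Tcf12 values of both cell types overlap, and the dotted line marks an adjusted TPM of 1.

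Tcf4, whose product E2-2 is known for its part in plasmacytoid dendritic cells and in B cells, was the most divided of the genes. It lies on chromosome 18, from 69343356 to 69689079 (GRCm38). Its adjusted TPM was 40.7, 39.1 and 41.8 in female B cells 1 to 3 and 44.3, 40.2 and 42.8 in male B cells 1 to 3. In T cells it was 0.628, 0.732 and 0.743 in females 4 to 6 and 0.632, 0.652 and 0.565 in males 4 to 6. Every B cell library was thus far above every T cell library, and the highest upper bound in T cells was 0.900. The mean was 41.5 ± 1.87 in B cells against 0.659 ± 0.0678 in T cells (SD, n = 6 each), a 63.0-fold ratio of the means. The log2 fold change was 4.68 (SE 0.05, adjusted p = 3.07e-16), the 210th largest in size of all tested genes. All T cell values were under 1, so the filter fixed the direction, and the pseudocount of 1 shrank the size. With a pseudocount of 0.1 the log2 fold change was 5.78 (SE 0.07). The 4 markers of plasmacytoid dendritic cells summed to between 13.2 and 20.6 in B cells and between 29.0 and 43.9 in T cells. In B cells Bst2 averaged 16.2 and Ccr9 1.08, and the defining marker Siglech was at most 0.00180. The part of these cells in the level of Tcf4 was not tested.

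Tcf3, the gene of E2A, which activates the early B cell programme, was present in both cell types at unequal levels. It lies on chromosome 10, from 80409514 to 80433647, on the minus strand. In B cells it had 62.1, 70.5 and 67.8 in females 1 to 3 and 71.3, 64.5 and 65.3 in males 1 to 3. In T cells it had 25.98, 25 and 21.3 in females 4 to 6 and 28.8, 25.04 and 23.2 in males 4 to 6. The lowest B cell library was above the highest T cell library by more than the spread within either cell type. The log2 fold change was 1.40 (SE 0.07, adjusted p = 8.73e-10), with means of 66.9 ± 3.60 (SD, n = 6) and 24.9 ± 2.56 (SD, n = 6). The table gives 1 value per gene, so the splice forms of E2A were not told apart.

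Tcf12, whose product HEB is the partner of E2A in thymocytes, was the E protein gene whose libraries overlapped between the cell types. It lies on chromosome 9, from 71842688 to 72111871, on the minus strand. Its adjusted TPM had a lowest, median and highest library of 46.8, 53.4 and 55.7 in B cells. The corresponding T cell libraries had 51.8, 53.5 and 61.8. These ranges overlapped. The log2 fold change was -0.06 (SE 0.06, adjusted p = 0.368), and an interval of 2 SE ran from -0.19 to 0.06, so a change of more than 0.19 in either direction lay outside it. With all libraries set to the same sum of 1000000, the difference was 0.31 (SE 0.20, adjusted p = 0.17). Processed pseudogenes lie within Tcf12 on the opposite strand, of which Rpl15-ps2 reached 10.6 in T cells and 6.18 in B cells, and the use of strand in the counting is not stated.

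Added up, the E protein genes had 161.3 ± 5.25 adjusted TPM in B cells against 80.8 ± 2.54 in T cells (SD, n = 6 each). In B cells Tcf3 made up 41.5% of this sum on average, Tcf12 32.8% and Tcf4 25.7%. In T cells, by contrast, Tcf12 made up 68.3%, Tcf3 30.8% and Tcf4 0.817%. The E protein transcripts of T cells were thus mostly Tcf12, while those of B cells were spread over the 3 genes.

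Id2, the inhibitor that innate lymphoid cells depend on, had the opposite direction to Tcf3 and Tcf4. It lies on chromosome 12, from 25093799 to 25097140, on the minus strand. In B cells its adjusted TPM was 5.97, 9.35 and 10.1 in females 1 to 3 and 9.81, 10.7 and 5.85 in males 1 to 3. In T cells it was 34.7, 25.9 and 30.9 in females 4 to 6 and 35.6, 29.2 and 28.8 in males 4 to 6. No B cell library reached the lowest T cell library. The log2 fold change was -1.75 (SE 0.15, adjusted p = 2.45e-07), with means of 8.63 ± 2.15 adjusted TPM in B cells against 30.8 ± 3.72 in T cells (SD, n = 6 each).

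Female B cell 1 and male B cell 3 stood below the other B cell libraries for Id2. The same libraries had the lowest summed levels of the germinal centre and cycling markers, at 27.1 and 20.8 against 37.4 to 49.4 in the other B cell libraries. They also had the lowest sums of the conventional dendritic cell markers, at 5.29 and 8.03 against 9.08 to 13.6. The part of these cells in the level of Id2 was not tested. Without both libraries the log2 fold change was -1.53 (SE 0.09, adjusted p = 1e-07). In T cells, 3 of the 8 markers of natural killer and innate lymphoid cells were tested and all were higher than in B cells, led by Klrd1 with 20.2 ± 2.83 (SD, n = 6) and Prf1 with 15.1 ± 2.25 (SD, n = 6). The 8 genes summed to between 34.8 and 43.2 in T cells and to between 1.69 and 3.79 in B cells. Rora, also tested, was at most 0.0203 in B cells and passed the filter through T cells alone, which fixed its direction. The defining genes Ncr1 and Klrb1c were under the filter, and at most 0.0137 and 0.0415 in T cells. They averaged higher in B cells, with 0.204 and 0.170 against 0.00742 and 0.0164 in T cells.

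Id3, which is induced by antigen receptor signals in thymocytes, was the most abundant Id gene of B cells. It lies on chromosome 4, from 136143497 to 136145755. Its adjusted TPM was 37.8, 55.1 and 39.1 in female B cells 1 to 3 and 42.9, 42.8 and 53.8 in male B cells 1 to 3. In T cells it was 33.9, 35.1 and 24.0 in females 4 to 6 and 35.5, 29.7 and 21.3 in males 4 to 6. The ranges did not overlap, but the lowest B cell library was close to the highest T cell library. The log2 fold change was 0.59 (SE 0.14, adjusted p = 0.00223), with means of 45.3 ± 7.42 (SD, n = 6) and 29.9 ± 6.04 (SD, n = 6). The libraries of both cell types were without overlap for 53.9% of all tested genes, and among these genes for Tcf3, Tcf4, Id2 and Id3. At a minimum absolute log2 fold change of 1, Id3 was no longer past the threshold (adjusted p = 1).

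Id1, an inhibitor known from endothelial and other non-lymphoid cells, was barely present. It lies on chromosome 2, from 152736251 to 152737410. Its adjusted TPM was between 0.0366 and 0.0479 in B cells and between 0.268 and 0.504 in T cells. The bounds were wide, with the lowest lower bound of T cells at 0.0971 and the highest upper bound of B cells at 0.171, so no fold is given. Without the filter on low values its log2 difference was -0.40 (SE 0.04, adjusted p = 3e-05), a size that the pseudocount of 1 sets for such values. The 4 endothelial markers summed to between 84.6 and 101.2 in B cells and between 87.6 and 97.1 in T cells, nearly all of it Pecam1, which averaged 92.0 and 91.4. The others, Cdh5, Kdr and Tek, were at most 0.504, 0.0545 and 0.00124 in any library.

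Summed, the Id genes had 53.9 ± 7.36 adjusted TPM in B cells against 61.1 ± 7.99 in T cells (SD, n = 6 each), with ranges of 43.8 to 64.5 and 50.5 to 71.6 that overlapped. In B cells Id3 made up 83.8% of this sum and Id2 16.2%. In T cells Id3 made up 48.7% and Id2 50.7%. The 2 cell types thus had overlapping totals of Id transcripts with another makeup.

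In order of level, Tcf3 was highest in all 6 B cell libraries. Tcf12, Id3 and Tcf4 followed. The range of Id3 overlapped with those of Tcf12 and Tcf4, so its place between them was not beyond the spread. Tcf12 and Tcf4 did not overlap, with at least 46.8 for Tcf12 and at most 44.3 for Tcf4. Id2 and then Id1 came last without overlap. In T cells Tcf12 was highest in all 6 libraries. Id2, Id3 and Tcf3 followed with overlapping ranges, and Tcf4 and then Id1 came last. Tcf3 was thus first in B cells and below Tcf12 and Id2 in every T cell library.

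Ratios of genes within a library do not depend on a scaling of whole libraries. The sum of the E protein genes was between 2.52 and 3.62 times the sum of the Id genes in B cells, with a median of 3.06, and between 1.14 and 1.70 times in T cells, with a median of 1.31. These ranges did not overlap. The ratio of Tcf3 to Tcf12 was at least 1.12 in every B cell library and at most 0.557 in every T cell library. The ratio of Id3 to Id2 was between 3.86 and 9.20 in B cells and between 0.741 and 1.36 in T cells. The ratio of Id2 to Tcf12 was between 0.107 and 0.216 in B cells and between 0.465 and 0.687 in T cells. In contrast, the ratio of Id3 to Tcf12 had overlapping ranges, with 0.679 to 1.04 in B cells and 0.345 to 0.686 in T cells. These ratios are of transcripts, and say nothing of protein levels.

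**Figure D2:**
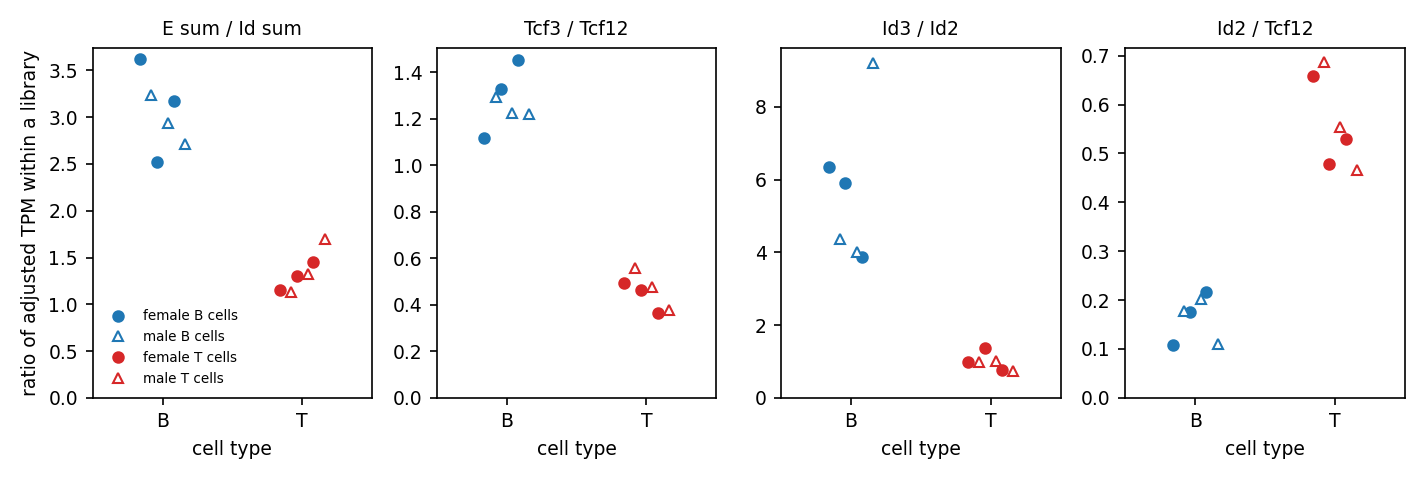
Ratios of adjusted TPM within each library for B cells (blue) and T cells (red), with females as filled circles and males as open triangles, 6 libraries per cell type. All 4 ratios are without overlap between the cell types, with the sum of the E protein genes over the sum of the Id genes from 2.52 to 3.62 in B cells and from 1.14 to 1.70 in T cells.

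Between females and males none of the 5 tested genes was past the threshold. In B cells 0.144% of all tested genes were past it. The 5 tested genes had log2 differences, female minus male, from -0.09 for Id3 (SE 0.20, adjusted p = 1) to -0.01 for Tcf3 (SE 0.10, adjusted p = 1). In T cells 0.104% of all tested genes were past it, and the differences ran from -0.09 for Tcf3 (SE 0.10, adjusted p = 1) to 0.11 for Id3 (SE 0.20, adjusted p = 1). The intervals of 2 SE were narrowest for Tcf4, from -0.21 to 0.08 in B cells and from -0.07 to 0.22 in T cells, and for Id2 they ran from -0.46 to 0.39 in both cell types. The size of difference that 3 libraries per group could detect was not measured. For the difference between the sex effects, limma placed 0% of all tested genes (0 genes) past the threshold, 295 genes had an unadjusted p under 0.05, and none of the 5 genes was among them. The lowest unadjusted p of the 5 was 0.201, for Tcf4. The sample descriptions carry a further digit that differs between the sexes in each cell type, in opposite order in B and T cells. What this digit marks was not established. Neither the sex differences nor the difference between them can be told apart from it.

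The T cell libraries numbered 6 stood apart from those numbered 4 and 5 in both sexes. Their Id3 values of 24.0 and 21.3 were below all other T cell libraries, which had 29.7 to 35.5. Their Tcf3 values of 21.3 and 23.2 were also the lowest, against 25 to 28.8, and their Tcf12 values of 58.4 and 61.8 the highest, against 51.8 to 54.2. The 3 regulatory T cell markers summed to 21.0 and 17.2 in these libraries and to between 1.75 and 3.14 in the others, with Ikzf2 at 13.4 and 11.3, Il2ra at 5.0 and 4.12, and Foxp3 at 2.57 and 1.82. The immediate early genes summed to 446.4 and 382.9 there and to between 683.8 and 1018 in the other T cell libraries. The part of regulatory T cells and of the immediate early response in the levels of Id3, Tcf3 and Tcf12 was not tested. Without both libraries the log2 fold change between B and T cells was 0.41 for Id3 (SE 0.12, adjusted p = 0.0092) and 1.32 for Tcf3 (SE 0.06, adjusted p = 1.7e-08), and Tcf12 was still not past the threshold (adjusted p = 0.97).

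**Figure D3:**
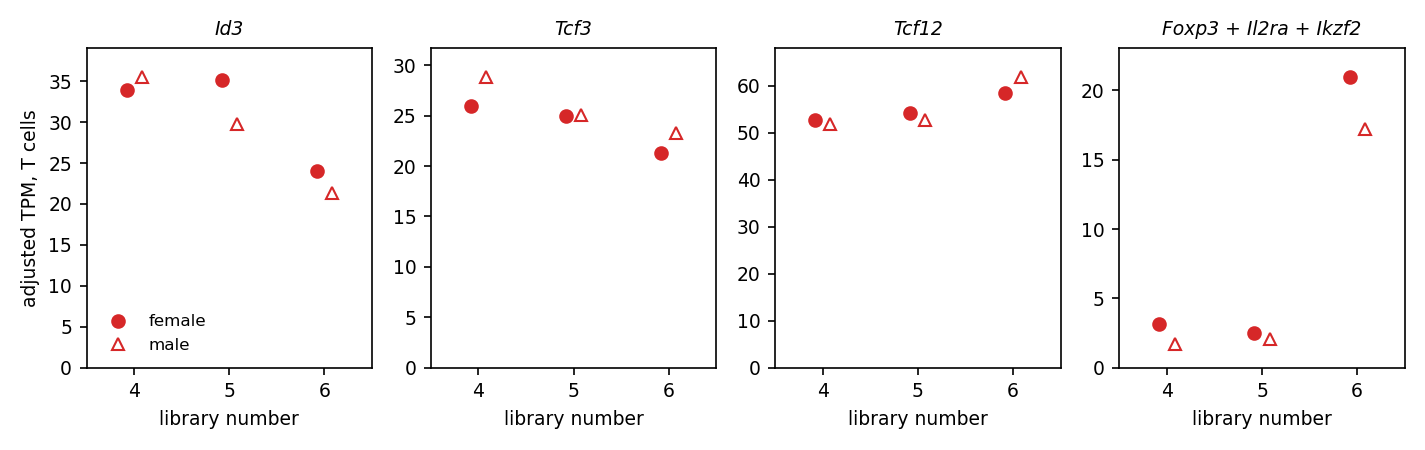
Adjusted TPM of Id3, Tcf3 and Tcf12 and the summed adjusted TPM of Foxp3, Il2ra and Ikzf2 in the 6 T cell libraries by library number, with females as filled circles and males as open triangles. In both libraries numbered 6, Id3 (24.0 and 21.3) and Tcf3 are lowest, Tcf12 is highest, and the summed markers (21.0 and 17.2) are highest.

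The direction of Tcf4, Tcf3, Id3 and Id2 did not rest on the scaling. Under median-ratio scaling their log2 fold changes were 4.74, 1.48, 0.68 and -1.67, and with all libraries set to the same sum of 1000000 they were 5.08, 1.77, 0.97 and -1.40. The median over all tested genes moved with these scalings, from -0.09 to -0.01 and to 0.25, and Tcf12 stayed near that median in each of them (-0.06, 0.02 and 0.31).

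**Figure D4:**
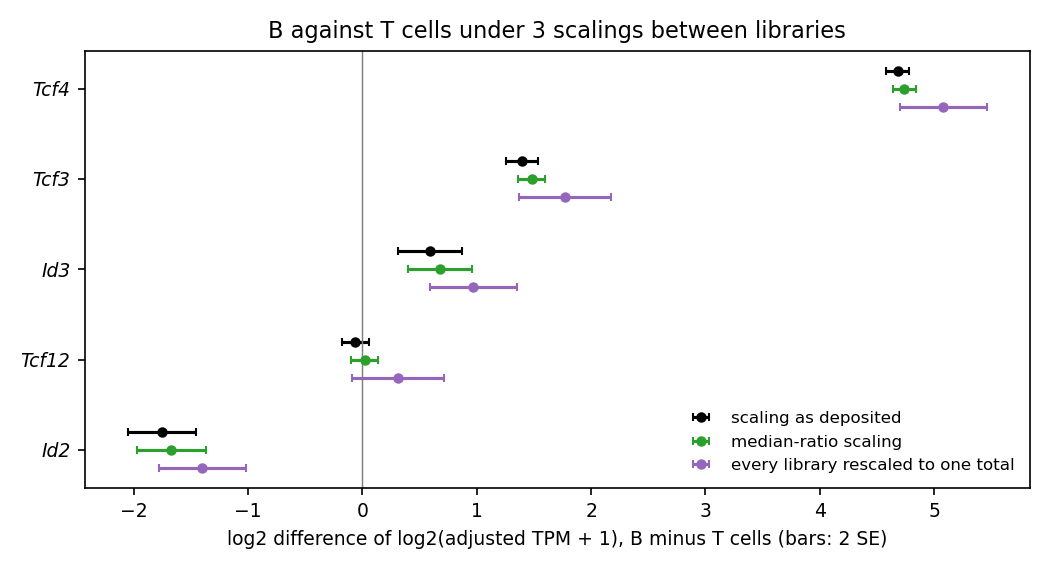
Log2 difference of log2(adjusted TPM + 1), B minus T cells, for the 5 tested genes under the scaling as deposited (black), median-ratio scaling (green) and all libraries set to the same sum (purple), with bars of 2 SE. Tcf4, Tcf3 and Id3 stay above 0 and Id2 stays below 0 under all 3 scalings, while the bars of Tcf12 cross 0.

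The promoters were searched for the E-box, since genes of this family can be bound by E proteins themselves. RefSeq promoters of GRCm38.p6, 250 bases before to 50 bases after a start, matched Tcf3, Tcf12, Id2 and Id3, with 3 starts for Tcf12 and 1 for each of the others. The motif CANNTG, whose reverse complement is the same pattern, is in 72.3% of all 32851 promoters, so that its presence is common. The form CAGCTG, included in it, is in 16.3%. Id2 holds 1 match, a CAGCTG that begins 196 bases before the start. The Tcf12 start farthest upstream holds a CAGCTG that begins 240 bases before it, and Tcf3 holds a CACTTG that begins 54 bases before its start. The remaining Tcf12 starts hold 3 other CANNTG, and none is in the window of Id3. The matches are shown with their flanks, 5′ to 3′ on the strand of the gene and with the E-box in capitals, because Id2, Tcf12 and Tcf3 stand for the 3 patterns seen between the cell types.
Id2, chr12:25096271-25096300, minus strand: aatttgccacccCAGCTGggctctcgcccg
Tcf12, chr9:72112040-72112069, minus strand: agatgctgccCAGCTGcgtccccgtcgcgg
Tcf3, chr10:80433672-80433701, minus strand: agtgggcgtggtCACTTGggggcgtggctt

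Sequence shared by the members could let reads of one be counted for another. The longest exact run shared by the annotated transcripts of 2 of the genes was 47 bases, for Tcf4 and Tcf12, then 23 bases for Tcf3 and Tcf4 and at most 20 bases for any other pair. Tcf12 had 51.8 or more in T cells, where Tcf4 was at most 0.743. The part of shared sequence in these levels was not tested.

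The genes with the most similar profile were searched among 10395 tested protein-coding genes, by the root mean square difference over the 12 libraries of log2 values centred on each gene's mean. This was done for Tcf3, Tcf4 and Id2, which were past the threshold with an absolute log2 fold change of at least 1, as were 21.6% of all tested genes. Nearest to Tcf3 were Syngr2 (0.0470), Erp29 (0.0713) and Inpp5d (0.0829), a phosphatase that restrains signalling from lymphocyte receptors. Nearest to Tcf4 were Pkib (0.0794), Prr5 (0.0832) and Hes1 (0.0894), itself an HLH factor and a target of Notch signals. Nearest to Id2 were Smco4 (0.102), the death receptor gene Fas (0.162) and P4ha1 (0.178). The difference between the cell types dominates these profiles.

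Other genes of the HLH family were mostly at low levels. Of 22 listed genes, 17 were under the filter, among them Id4, the remaining Id gene, at no more than 0.00229. The 5 tested genes were under 1 adjusted TPM in every T cell library and so passed the filter through the B cell libraries alone, which fixed their direction. Lyl1, a partner of E proteins in haematopoiesis, averaged 49.0 ± 2.96 adjusted TPM in B cells against 0.272 ± 0.0752 in T cells (SD, n = 6 each), or 5.30 on the log2 scale (SE 0.06, adjusted p = 4.8e-16). Hes1, Bhlhe40, Bhlhe41 and Hes5, transcriptional repressors of the HLH-Orange type, had log2 fold changes of 4.57, 3.43, 2.03 and 1.97.

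Of 14 cofactors of E proteins, 11 were tested, of which 6 were higher in B cells, 4 higher in T cells and 1 not past the threshold, with a median of 0.16. Lmo2, which bridges HLH dimers and GATA factors, averaged 112.0 ± 7.80 adjusted TPM in B cells against 0.125 ± 0.0725 in T cells (SD, n = 6 each). Its log2 fold change was 6.65 (SE 0.06, adjusted p = 8.9e-17). The corepressor gene Cbfa2t3 had 2.85, whereas Gata3, a factor of T cell commitment, had -3.74, Gata1 -1.67 and the acetyltransferase gene Kat2b -1.22. Kat2a had 11.8 in B cells and 13.1 in T cells on average (adjusted p = 0.053).

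Of 14 other factors that bind E-boxes, 10 were tested, with 5 higher in B cells, 3 higher in T cells and a median of 0.33. In log2 fold change, the repressor gene Zeb2 had 4.78 (SE 0.07, adjusted p = 4.2e-15) and Tfeb, a regulator of lysosomal genes, had 2.43. Usf1 and Mxd4 had 0.65 and 0.56, and Mitf had -0.67. Max, the partner of Myc, had 37.4 in B cells and 40.1 in T cells on average (adjusted p = 0.26). With all libraries set to the same sum of 1000000, 6 were higher in B cells and 1 in T cells, so the smaller changes of this list depend on the scaling.

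Genes that E proteins bind or regulate in B lineage cells were mostly higher in B cells, with 14 of the 17 tested of 22 listed, 2 higher in T cells and a median log2 fold change of 6.12. Cd79b and Cd79a, the signalling chains of the B cell receptor, had 9.11 and 8.01, Spib had 7.71 and Blk 7.24. The genes higher in T cells, named after their values were seen, were Dntt (-2.99), which adds nucleotides at receptor joints, and the cyclin gene Ccnd3 (-0.83). Rag1, Rag2, Vpreb1, Igll1 and Cdkn1a were under the filter. Foxo1, listed for both lineages and upstream of the Id genes, averaged 35.3 ± 3.31 adjusted TPM in B cells against 36.9 ± 2.11 in T cells (SD, n = 6 each, adjusted p = 0.39).

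Of the corresponding 21 genes in T lineage cells, 16 were tested, of which 13 were higher in T cells and 2 higher in B cells, with a median of -2.36. Cd3g had -8.79, Tcf7, a factor of T cell identity that is no E protein in spite of its name, -7.91, Cd4 -7.58, Lat -7.35 and Il7r -7.28. The genes higher in B cells, named after their values were seen, were Cxcr5 (5.84), the receptor for entry into B cell follicles, and Bcl6 (1.97). Of the targets named, Spib and Blk passed the filter through B cells alone. Dntt, Cd3g, Tcf7, Cd4, Lat and Il7r passed it through T cells alone. In the lists above, Lmo2, Cbfa2t3 and Zeb2 passed through B cells alone, and Gata3, Gata1 and Mitf through T cells alone. The filter thus fixed the direction of these genes. The same held for further genes of both target lists that are not named. The counts and medians of these 2 lists therefore rest in part on the filter. The targets of both lineages include genes by which B and T cells are defined, and the part of E proteins in their differences was not tested.

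Of 23 genes upstream of the Id genes, 20 were tested, with 12 higher in T cells, 4 higher in B cells and a median log2 fold change of -0.32. Smad7, an inhibitor of TGF-beta signals, had -1.65 (SE 0.14, adjusted p = 2.5e-07), Eomes had -1.35 and Stat5b, which conveys cytokine signals, had -1.20. In contrast, Egr3, which is induced by antigen receptor signals, had 2.22 (SE 0.11, adjusted p = 1.2e-09) and Tbx21 1.19. Eomes passed the filter through T cells alone and Tbx21 through B cells alone, which fixed their directions. With all libraries set to the same sum of 1000000, 6 genes were higher in each cell type, so that the majority towards T cells was lost.

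**Figure D5:**
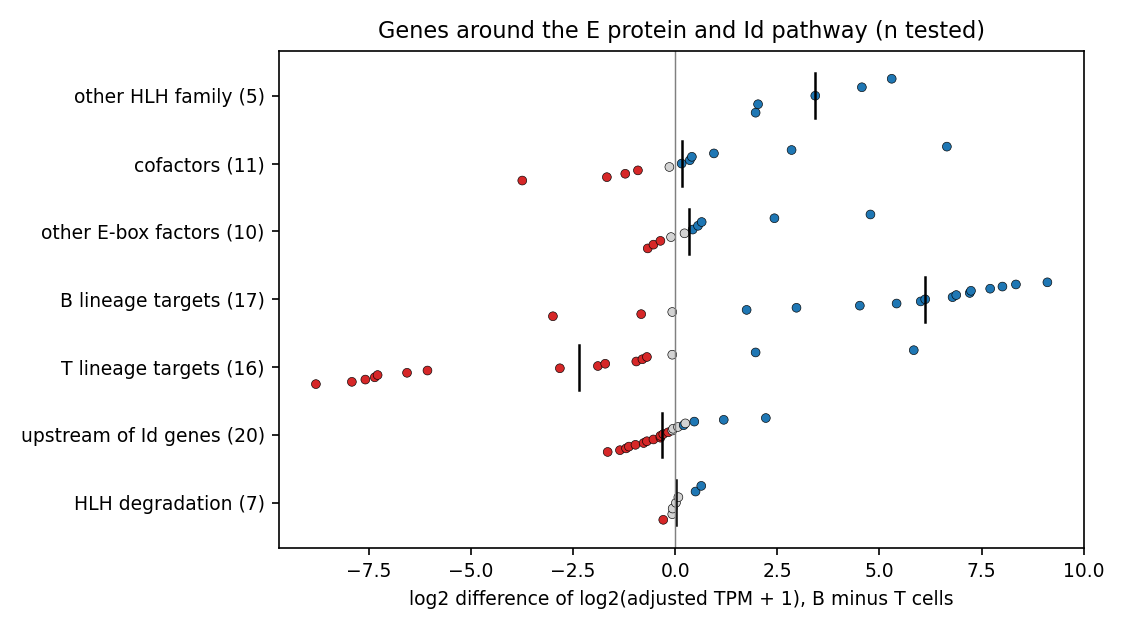
Log2 difference of log2(adjusted TPM + 1), B minus T cells, for each tested gene of 7 lists around the E protein and Id pathway, with genes past the threshold in blue (higher in B cells) or red (higher in T cells), others in grey, and the list median as a black line. The 5 other HLH genes passed the filter through B cells alone, the medians are 6.12 for the 17 targets in B lineage cells and -2.36 for the 16 targets in T lineage cells, and the other lists have medians between -0.32 and 0.33. Part of the targets of each lineage also passed the filter through a single cell type, which fixed their direction.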

How the data were processed

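RNA was sequenced in 12 libraries, and the submitters' processing notes name Trim Galore, FastQC, STAR and the mm10 build. The deposited table holds a signal, adjusted TPM, with lower and upper bounds; the authors rescaled it between libraries by a method not given in the sources used here, as are the quantification tool and the level of the bounds. Depth is unknown, so precision was read from the bounds and from the spread of libraries. Genes with at least 1 adjusted TPM in at least 3 libraries were tested, with a pseudocount of 1. The test was limma (version 3.58.1, R 4.3.3) on log2 values of the 12 libraries together, with each of the 4 groups as a coefficient and a trend of variance with the mean, checked on simulated data. Python 3.11.15, pandas 2.3.3 and matplotlib 3.10.9 served for the rest. Coordinates are from GENCODE M21.

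The member genes and all lists were chosen with earlier results of these data known. The genes named are the 6 members, the 3 nearest profiles of each called member with a log2 fold change of at least 1, and of each list the largest called changes (up to 5) and the most abundant gene not past the threshold. One gene that this rule names is not reported here. The lists comprise other HLH genes, cofactors, other E-box factors, targets in B and T lineage cells, regulators of Id genes, degradation of HLH proteins, immediate early genes and cell type markers. Alternatives were another pseudocount, other filters, other scalings, no trend, a minimum fold change, fits of 1 cell type, omitted libraries and a block for the library number. Female and male T cell libraries of the same number deviated together over all tested genes (r = 0.721, 0.548 and 0.521 for numbers 4, 5 and 6), and those of B cells did not (r = -0.169, -0.0382 and -0.337). The pairing in T cells comes from these values, since the labels give no meaning to the numbers. The comparison of B and T cells took the T cell libraries as independent, so its SE and p can be too small. This matters most for small changes such as that of Id3, which was lowest in both T cell libraries numbered 6. Nothing in the labels says that pools of a group share no animal, so p-values measure the spread between these pools.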

Additional observations from a re-analysis of the deposited data

Results flagged for a closer look

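Tcf12 in B cells was looked at again because female B cell 3, with 46.8 adjusted TPM, lay apart from the other B cell libraries, of which the next lowest had 52.6. The gap divided by the range was 0.651, above Dixon's critical value for 6 libraries. Such a gap appears by chance in about 1 of 20 sets, and 12 sets (6 genes in 2 cell types) were examined. Without this library the log2 difference of Tcf12 between B and T cells was -0.03 (SE 0.06, adjusted p = 0.70).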

How the results depend on the processing

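Between B and T cells, 4 of the 5 tested genes were past the threshold, and this count was 3 when the change had to exceed 1 on the log2 scale (Id3 lost) and 3 when only genes with at least 1 in all 12 libraries were tested (Tcf4 not tested). In all other alternatives it was at least 4 (5 with no filter, where Id1 was added), and no called gene changed direction. Leaving out each library in turn gave log2 fold changes of 4.66 to 4.70 for Tcf4, 1.35 to 1.44 for Tcf3, 0.49 to 0.67 for Id3 and -1.82 to -1.63 for Id2. With a pseudocount of 0.1 they were 5.78, 1.43, 0.61 and -1.86, so that the size for Tcf4, which was under 1 in T cells, moved most. Over all tested genes the count of 9134 moved to 24591 of 41128 with no filter and to 2060 with that minimum change, and lay between 8717 and 9193 with each library left out. With the library number as a replicate block, 0 of the 5 genes were past the threshold between females and males in either cell type. The same held for the difference between the sex effects, and both results were as without the block. No paired analysis was possible between B and T cells because their library numbers do not overlap. Alternatives that left out 2 libraries were chosen after seeing the data. The ratio of Tcf4 to Tcf12 had a median of 0.0123 over the T cell libraries. This median was 0.00913 with lower bounds over upper bounds and 0.0161 with upper bounds over lower bounds. The bounds of single libraries reached beyond these medians. Depth is unknown, and for genes such as Id1 the bounds are too wide for a fold.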

Other observations

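Genes for the degradation and deubiquitination of HLH proteins differed little between B and T cells. All 7 listed genes were tested, of which 2 were higher in B cells, 1 was higher in T cells and 4 were not past the threshold, with a median log2 fold change of 0.02. Fzr1, an activator of the anaphase-promoting complex, had 0.64 (SE 0.07, adjusted p = 1.7e-06), Skp2 0.50 and the ubiquitin ligase gene Stub1 -0.29. With all libraries set to the same sum of 1000000, 3 were higher in B cells and none in T cells. Huwe1, a ubiquitin ligase that acts on Id proteins, averaged 92.7 ± 5.77 adjusted TPM in B cells against 91.6 ± 10.2 in T cells (SD, n = 6 each, adjusted p = 0.80).

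Of the 10 immediate early genes, 9 were tested, 3 of them higher in T cells (Dusp1, Junb and Ier2, with log2 fold changes of -0.95, -0.79 and -0.75) and none higher in B cells. With all libraries set to the same sum of 1000000, 3 were higher in B cells and 1 in T cells. Jund had 133.5 in B cells and 134.0 in T cells on average (adjusted p = 0.90), and Fos ranged from 16.6 to 173.6 in B cells and from 41.5 to 189.0 in T cells.

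Markers of other cells were also compared. The plasma cell gene Jchain averaged 97.9 ± 28.0 adjusted TPM in B cells against 0.635 ± 0.445 in T cells (SD, n = 6 each), and the haemoglobin gene Hbb-bs ranged from 0.210 to 154.2 in B cells and from 1.52 to 32.3 in T cells. Of those tested, 4 of 5 conventional dendritic cell, 3 of 3 macrophage, 3 of 4 plasma cell, 3 of 4 effector and memory T cell and 4 of 5 germinal centre and cycling genes were higher in B cells, and both plasmacytoid dendritic cell genes (Bst2 and Ccr9) were higher in T cells. Of the CD8 T cell genes 1 was higher in each cell type, of the regulatory T cell genes 1 of 2 was higher in T cells, and the tested unconventional T cell gene, Cd160, was higher in T cells. Some of these marker genes passed the filter through a single cell type, which fixed their direction. The tested endothelial gene, Pecam1, and the 2 erythroid genes were not past the threshold, and the 3 neutrophil genes were under the filter.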
